A study of Homo sapiens with 4 samples.

Results

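The genes described here encode the ATP-binding cassette (ABC) proteins, the family that includes the drug-efflux pumps. They were taken as the protein-coding genes of the deposited table whose symbols run from ABCA to ABCG followed by a digit. There were 45 of them among 2864 genes with values, of which 2258 were protein-coding. The genes at hand run alphabetically and end among names that start with CAC. ABC proteins whose genes carry other names, such as CFTR, TAP1 and TAP2, were not analysed here.

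RNA was sequenced from 4 cultures of A375, a human melanoma cell line that carries mutant BRAF, with 1 library per condition. A375P was the untreated parental line. A375R was a strain derived from it by stepwise escalation of vemurafenib, an inhibitor of mutant BRAF. Its labels describe the exposure as constant, and give no dose for the culture sequenced. A375+DMSO was parental A375 given the solvent DMSO at 1‰ for 48 h, and A375+VEM was parental A375 given 2 μM vemurafenib for 48 h. In lists of values, these last 2 libraries are written as with DMSO and with vemurafenib. The DMSO content of the vemurafenib culture is not given separately in the labels. All 4 libraries are labelled wild type and carry the same batch label, and A375R is a single strain. No condition was repeated, so differences between libraries could not be set against the spread between cultures and were not tested. The 95% intervals were computed from the read numbers by the Clopper-Pearson method, and cover counting error only. In bulk RNA, fewer cells of a type and less RNA per cell cannot be told apart.

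ABC proteins bind and hydrolyse ATP on a conserved nucleotide-binding domain. In most members this domain powers membrane-spanning segments that move lipids, peptides, metal complexes, organic anions or drugs across a membrane. Subfamilies E and F have no membrane-spanning part and act in translation on the ribosome. ABCB1 (P-glycoprotein), ABCG2 (breast cancer resistance protein) and the ABCC proteins known as multidrug resistance-associated proteins are best known for lowering the drug content of tumor cells, and vemurafenib is a known substrate of ABCB1 and ABCG2.

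The reads of the table summed to between 1891215 and 2054277 per library, a part of each library rather than its depth. For each gene the authors gave the number of reads and the TPM, a length-corrected share of the whole library, so TPM can be compared between genes. The ABC genes together held 25640 reads in A375P, 23704 in A375R, 23036 with DMSO and 27607 with vemurafenib. As to identity markers, 3 of 11 melanocyte and melanoma genes are in the table at hand. BCAN had 498 to 1183 reads, while BIRC7 had 1 to 18 and ABCB5, itself an ABC gene, had 0 to 6. AXL, the 1 gene of dedifferentiated melanoma in the table, had 27682 reads in A375P, 21802 in A375R, 14038 with DMSO and 3596 with vemurafenib. The 4 leukocyte genes in the table had at most 8 reads each, and of the fibroblast genes ASPN had at most 4 while ACTA2 had 420 to 1468. The hepatocyte genes ALB and APOA1 had 861 to 1291 and 76 to 112 reads. The part of these markers in the results was not tested.

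Of the 45 genes, 31 reached a TPM of 1 in at least 1 library and 14 stayed under it in every library. The summed TPM of the family was 665 in A375P, 658 in A375R, 628 with DMSO and 752 with vemurafenib, or between 0.0628% and 0.0752% of the library. The composition within that sum differed more than the sum itself. Subfamily E held 14.6% of the family's TPM in A375P, 10.6% in A375R, 7.97% with DMSO and 3.01% with vemurafenib. In the same order, subfamily F held 31.2%, 25.9%, 25.8% and 22.2%. Subfamily B held 22.4%, 20.4%, 22.3% and 28.8%, and subfamily A 6.02%, 8.69%, 8.43% and 10.9%. Subfamily C held 17.0% in A375P and between 21.0% and 22.3% in the other 3 libraries. Subfamily G was the smallest, at 3.83 in A375P, 13.2 in A375R, 10.1 with DMSO and 4.07 with vemurafenib.

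**Figure D1:**
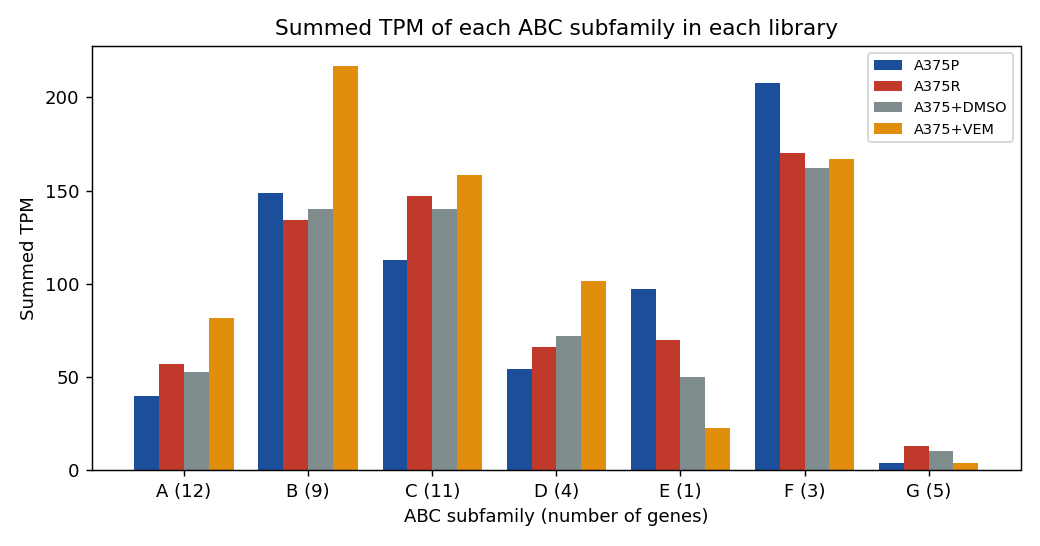
Summed TPM (vertical axis, from 0) of each ABC subfamily (horizontal axis, with its number of genes) in the 4 libraries, 1 bar per library. A375+VEM has the tallest bar in subfamilies A, B, C and D, while in subfamilies E and F the tallest bar is that of A375P.

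The highest single levels belonged to genes of translation. ABCE1, which splits ribosomes for recycling, ranked first in A375P, second in A375R and A375+DMSO, and 15th in A375+VEM. ABCF1, which acts in translation initiation, ranked second in A375P and first in the other 3 libraries. Among the 31 genes that reached a TPM of 1, 16 had their highest value in A375+VEM, 7 in A375R, 6 in A375P and 2 in A375+DMSO. A375P held the lowest value of 15 of them, A375+VEM of 9, A375+DMSO of 5 and A375R of 2. The highest and lowest libraries differed by less than 1.5-fold for 7 of the 31 genes and by at least 3-fold for 13. These counts were not made over all genes, so they cannot be read as particular to the family.

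**Figure D2:**
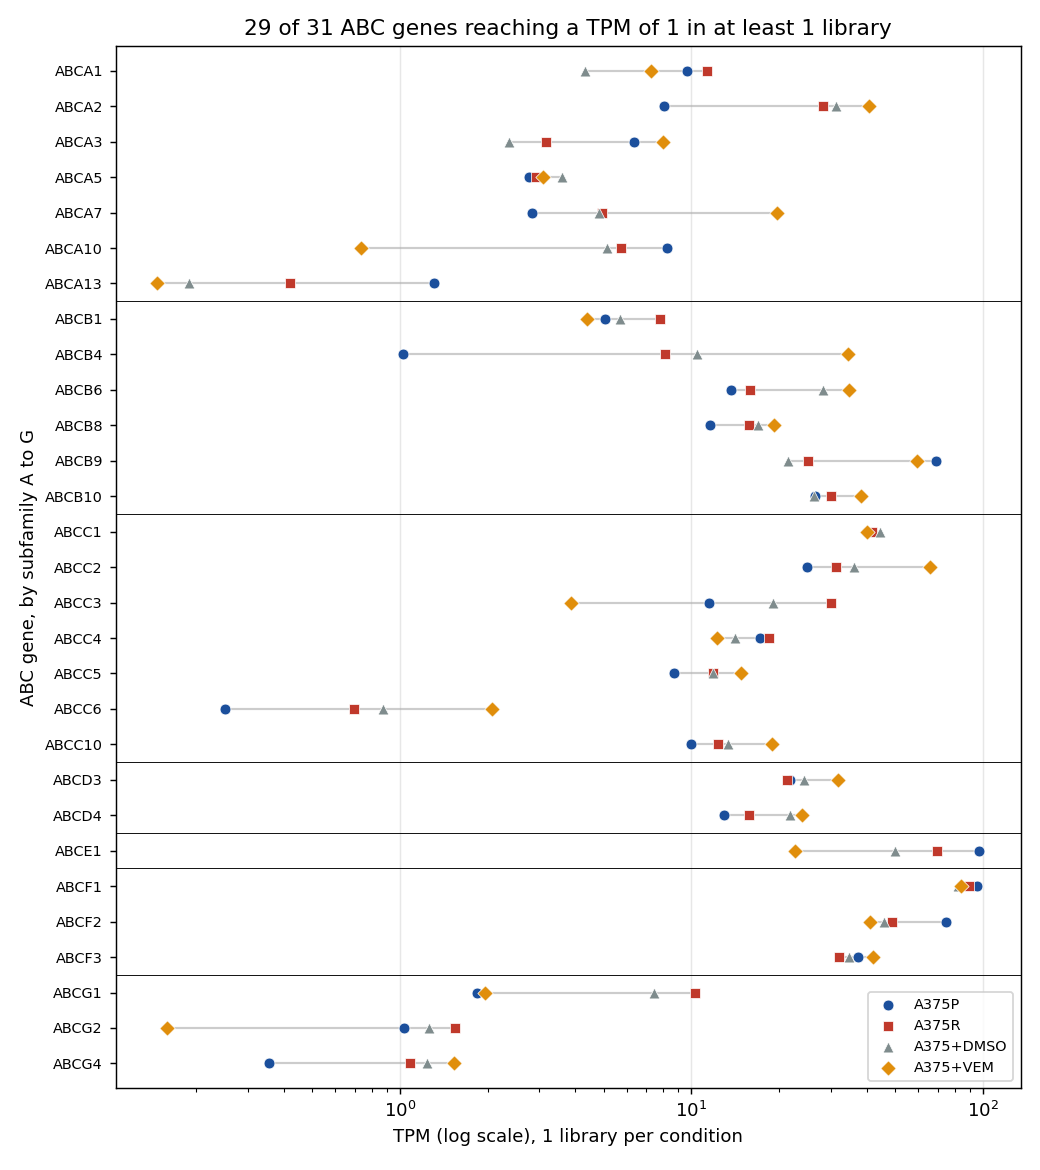
TPM on a log axis for 29 of the 31 ABC genes that reached a TPM of 1 in at least 1 library, ordered by subfamily, with 1 point per library. The points of ABCC1 and ABCF1 nearly coincide, while those of ABCB4 span 33.6-fold and those of ABCA10 11.2-fold.

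To compare libraries, a gene was called higher or lower if (TPM + 0.1) differed by more than 1.5-fold, among genes that reached a TPM of 1 in either library or both. The resistance pair, A375R against A375P, covered 30 of the 45 genes, 2 of which passed that limit in 1 of the libraries only. These were ABCA13 (TPM 1.31 in A375P, 0.421 in A375R) and ABCG4 (0.356 and 1.08). Each entered through the library where it was higher, which favours a call, and both were called. ABCA2, ABCA7, ABCB1, ABCB4, ABCC3, ABCG1 and ABCG4 were higher in A375R, and ABCA3, ABCA13, ABCB9 and ABCF2 were lower. The 7 higher genes are 23.3% of the 30, where 26.8% of all genes tested were higher, and the 4 lower genes are 13.3%, where 17.5% of all genes were lower. The family's shares were thus not above those of the table as a whole. Its median log2 ratio was 0.25, beside 0.10 over all genes tested.

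The acute pair, A375+VEM against A375+DMSO, also covered 30 genes, 3 of them through 1 library only. These were ABCA10 (TPM 5.14 with DMSO, 0.736 with vemurafenib), ABCC6 (0.874 and 2.08) and ABCG2 (1.26 and 0.159). Each entered through the library where it was higher, which favours a call, and all 3 were called. Genes higher under vemurafenib included ABCA1, ABCA3, ABCA7, ABCB4, ABCB9, ABCC2 and ABCC6, and ABCA10, ABCC3, ABCE1, ABCG1 and ABCG2 were lower. The 8 higher genes are 26.7% of those tested, beside 26.5% of all genes, and the 5 lower genes are 16.7%, beside 19.7%. The median log2 ratio was 0.28, beside 0.11 over all genes tested.

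**Figure D3:**
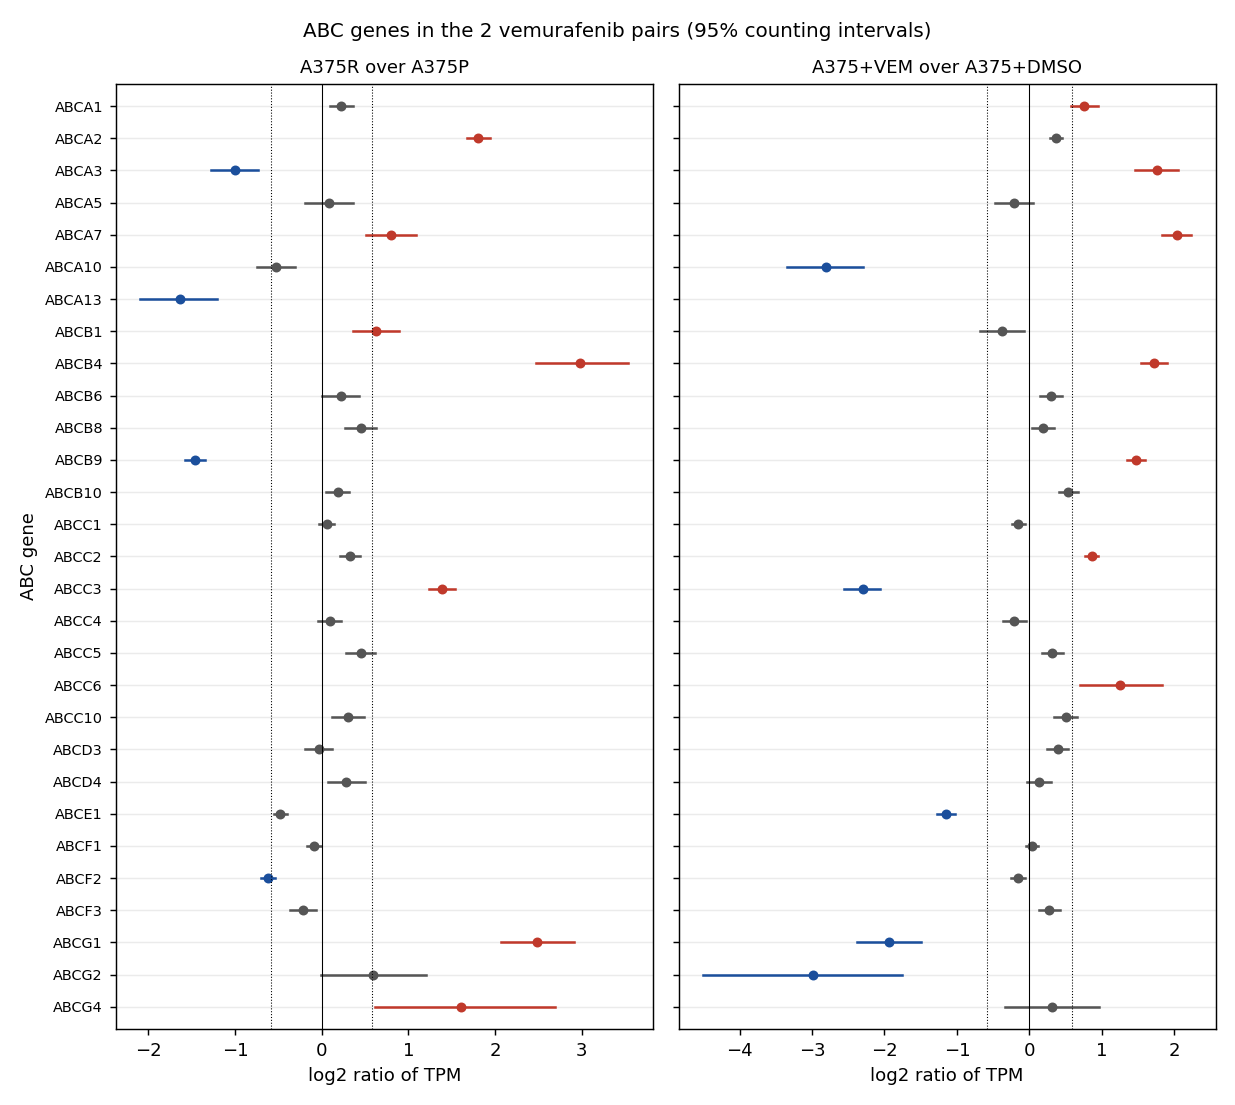
Log2 ratio of TPM (points) with 95% counting intervals (bars) for the ABC genes shown that were tested in the resistance pair (left) and the acute pair (right), with dotted lines at 1.5-fold. Red marks genes called higher and blue genes called lower on (TPM + 0.1); ABCB4 lies right of the upper line in both panels, and ABCC3 and ABCG1 lie right of it on the left and left of the lower line on the right.

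RefSeq promoter sequences of GRCh38.p14 were found for 35 of the 45 genes. The 250 bases before the transcription start are shown for 3 genes called higher in the acute pair and for ABCE1, which was called lower, all of them genes with a single start in the table of promoters. Sequences run 5′ to 3′ on the gene's strand, and capitals mark the motifs searched.
ABCA3 (chr16:2340729-2340978, minus strand): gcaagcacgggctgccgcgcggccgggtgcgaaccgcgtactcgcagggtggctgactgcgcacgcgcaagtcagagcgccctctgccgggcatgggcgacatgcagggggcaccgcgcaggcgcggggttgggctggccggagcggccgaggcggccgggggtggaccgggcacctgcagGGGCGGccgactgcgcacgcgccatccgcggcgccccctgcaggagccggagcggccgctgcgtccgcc
ABCA7 (chr19:1039857-1040106, plus strand): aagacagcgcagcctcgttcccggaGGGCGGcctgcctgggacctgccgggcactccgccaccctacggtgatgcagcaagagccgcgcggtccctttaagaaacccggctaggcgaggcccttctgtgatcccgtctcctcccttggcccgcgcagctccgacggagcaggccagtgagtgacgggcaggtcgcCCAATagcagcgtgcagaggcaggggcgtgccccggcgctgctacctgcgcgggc
ABCC2 (chr10:99782390-99782639, plus strand): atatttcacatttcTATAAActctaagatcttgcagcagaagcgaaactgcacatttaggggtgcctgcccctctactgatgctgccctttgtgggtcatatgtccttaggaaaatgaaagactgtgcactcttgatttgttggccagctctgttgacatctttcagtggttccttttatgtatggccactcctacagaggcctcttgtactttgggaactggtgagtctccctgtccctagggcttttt
ABCE1 (chr4:145098061-145098310, plus strand): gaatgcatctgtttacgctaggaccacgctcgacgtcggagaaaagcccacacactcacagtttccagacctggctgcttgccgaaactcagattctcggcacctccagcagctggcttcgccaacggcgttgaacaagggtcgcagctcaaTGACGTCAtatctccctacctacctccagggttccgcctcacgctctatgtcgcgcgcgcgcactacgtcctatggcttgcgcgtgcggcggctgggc

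The motifs, searched on both strands, were the E-box CACGTG, the CCAAT box CCAAT, the GC box GGGCGG, the TATA box TATAAA and the cAMP response element TGACGTCA, the last added after the ABCE1 sequence had been seen. No letters of these matches overlap in the 4 sequences. ABCA3 holds a GC box that begins 69 bases before the start, and ABCA7 a GC box at 225 and a CCAAT box at 55. ABCC2 has TATAAA at 236 bases before the start, and ABCE1 has TGACGTCA at 98. A gene was counted if any of its starts had the motif. The E-box was found in 8 of the 35 ABC genes (22.9%) and in 7.73% of 27305 genes with a promoter. The 8 are ABCA1, ABCA9, ABCA12, ABCB6, ABCB9, ABCC10, ABCF1 and ABCG2. Counted by start, it was in 9 of 53 starts of ABC genes and in 6.34% of 35116 starts of all genes. The GC box was found in 60.0% of the 35 and 46.2% of all, the CCAAT box in 31.4% and 37.0%, and the TATA box in 17.1% and 13.0%. The cAMP response element was found in ABCE1 alone among the 35 (2.86%) and in 2.03% of all. These counts describe letters in a window and say nothing of binding.

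A375P and A375+DMSO, the libraries without vemurafenib, differed from each other as well. In A375+DMSO against A375P, 8 of 30 ABC genes were higher (26.7%, beside 26.8% of all genes) and 7 were lower (23.3%, beside 18.9%). The higher ones were ABCA2, ABCA7, ABCB4, ABCB6, ABCC3, ABCD4, ABCG1 and ABCG4, and the lower ones ABCA1, ABCA3, ABCA10, ABCA13, ABCB9, ABCE1 and ABCF2. Here too ABCA13 and ABCG4 reached a TPM of 1 only in the library where they were higher. The median log2 ratio was 0.32, beside 0.09 over all genes. In A375R against A375+DMSO, 29 genes were tested. ABCA1 and ABCC3 were higher, 6.90% of the genes tested beside 10.5% of all genes, and ABCB6 was lower, 3.45% beside 9.99%. The median log2 ratio was 0.03, beside 0.02 over all genes. Every comparison with A375P shares that 1 library, so for genes called in the resistance pair the ratio of A375R to A375+DMSO is given too.

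**Figure D4:**
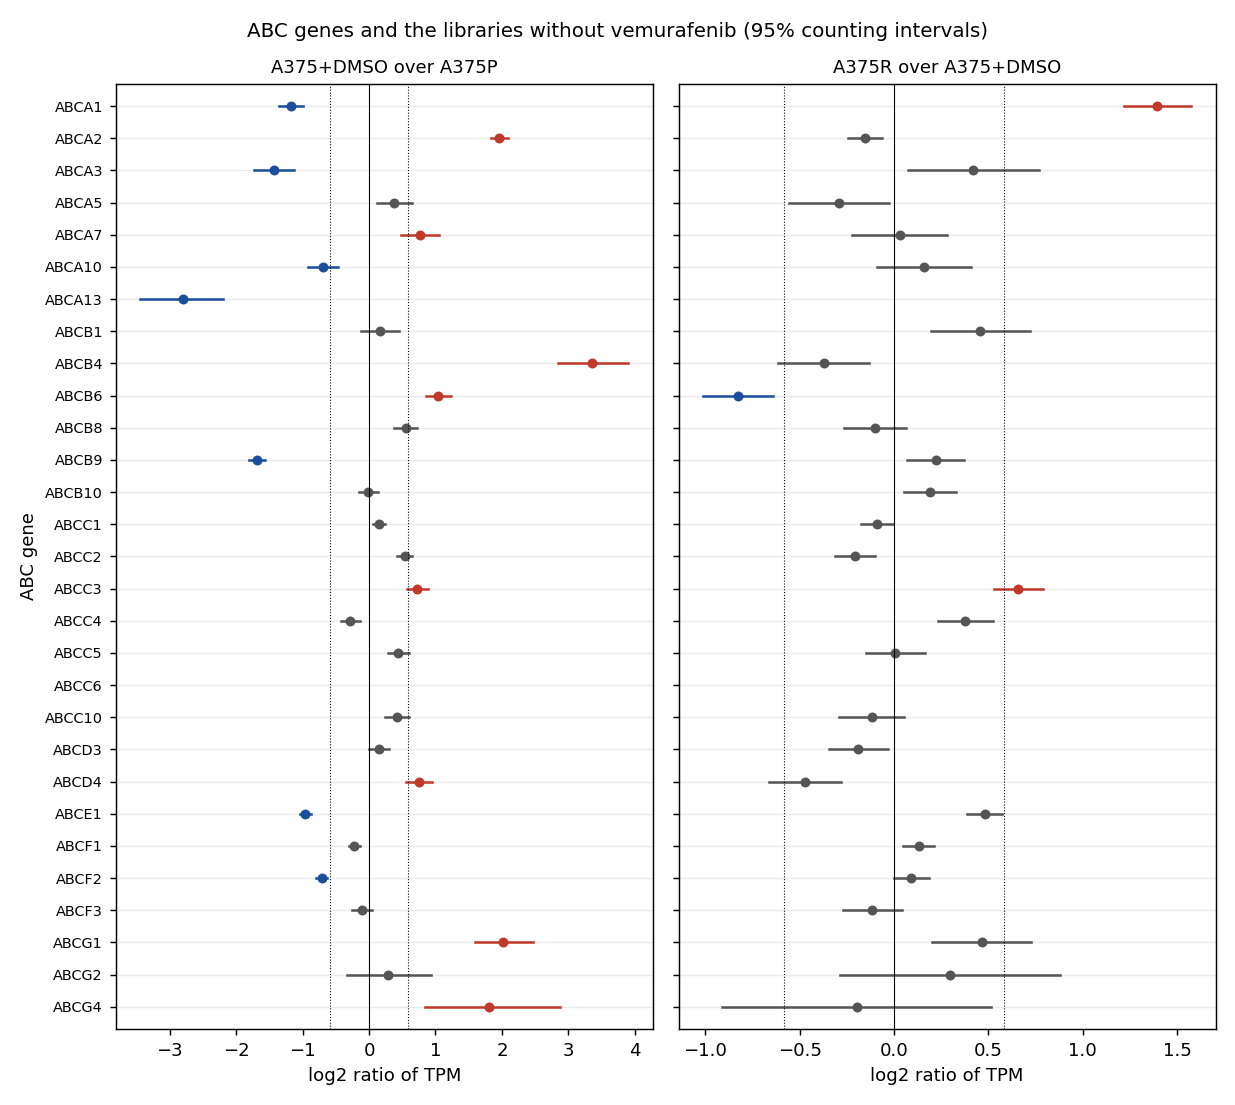
Log2 ratio of TPM with 95% counting intervals for the ABC genes shown that were tested in A375+DMSO over A375P (left) and in A375R over A375+DMSO (right), with dotted lines at 1.5-fold and the same colours as in the plot of both vemurafenib pairs. In the right panel ABCA1 and ABCC3 lie past the upper line and ABCB6 past the lower one.

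Of the 15 genes listed for drug efflux, 12 reached a TPM of 1 in some library. Their summed TPM was 134 in A375P, 196 in A375R, 191 with DMSO and 246 with vemurafenib, or 20.2%, 29.7%, 30.4% and 32.7% of the family. In the resistance pair 4 of 11 tested were higher and 1 lower, and in the acute pair 4 of 12 were higher and 2 lower, with median log2 ratios of 0.45 and 0.34. Over all genes tested, 26.8% were higher and 17.5% lower in the resistance pair, and 26.5% and 19.7% in the acute pair. From A375P to A375+DMSO the list had 3 of 11 higher, 1 lower and a median of 0.42. Against A375+DMSO, A375R had 1 of 11 higher, 0 lower and a median of 0.01. ABCA2 alone contributed 8.07 TPM in A375P, 28.2 in A375R, 31.4 with DMSO and 40.7 with vemurafenib to these sums.

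ABCB1, a minus-strand gene of chromosome 7 that the authors' table places from 87133179 to 87342639, is the classical multidrug pump. Positions here and below are as deposited, and the submitters' processing notes list the build hg19. It had 204 reads in A375P, 284 in A375R, 214 with DMSO and 164 with vemurafenib, at TPMs of 5.05, 7.78, 5.67 and 4.38. A375R was the highest library, 1.54-fold above A375P (95% interval 1.28 to 1.85) and 1.37-fold above A375+DMSO (1.14 to 1.64). The second of these ratios was within 1.5-fold. In A375+VEM the ratio to A375+DMSO was 0.772 (0.626 to 0.95), also within it. The call of ABCB1 in the resistance pair did not hold with a pseudocount of 1 (log2 ratio 0.54) or with scaling to a median ratio of 1 over all genes tested (0.52), beside 0.61 as given.

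ABCB4 lies 28159 bp from ABCB1 on the same strand, from 87031361 to 87105019. It flips phosphatidylcholine into bile and is the closest relative of ABCB1, so reads of shared stretches could be split between them in a way the sources do not state. It had 35 reads in A375P, 250 in A375R, 334 with DMSO and 1089 with vemurafenib, at TPMs of 1.02, 8.10, 10.5 and 34.4. A375P was the lowest library by far and A375+VEM the highest. The ratio was 7.91 in A375R against A375P (95% interval 5.54 to 11.6) and 3.28 in A375+VEM against A375+DMSO (2.90 to 3.72). A375+DMSO was itself 10.2-fold above A375P (7.21 to 14.9), and A375R stood at 0.773 of A375+DMSO (0.654 to 0.914). The difference between A375R and A375P was therefore not seen from the other library without the drug. The neighbours ABCB1 and ABCB4 were close in A375R, at 7.78 and 8.10 TPM, and differed most in A375+VEM, at 4.38 and 34.4.

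ABCG2, on chromosome 4 from 89011416 to 89152474, was near the lower limit of what these libraries resolve. It had 42 reads in A375P, 57 in A375R, 48 with DMSO and 6 with vemurafenib, at TPMs of 1.03, 1.55, 1.26 and 0.159. The 3 libraries other than A375+VEM were not distinguishable from each other by counting error, with intervals of 0.991 to 2.29 for A375R against A375P and 0.821 to 1.84 for A375R against A375+DMSO. A375+VEM was the lowest, at 0.126 of A375+DMSO (95% interval 0.044 to 0.295).

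The ABCC pumps export organic anions and conjugates of drugs with glutathione, glucuronate or sulfate. ABCC1, on chromosome 16 from 16043434 to 16236931, was the steadiest of them. It had 2252 reads in A375P, 2119 in A375R, 2330 with DMSO and 2084 with vemurafenib, and its highest and lowest TPM differed by 1.11-fold. The ratio was 1.04 in the resistance pair (95% interval 0.981 to 1.11) and 0.901 in the acute pair (0.849 to 0.956), and A375R stood at 0.939 of A375+DMSO (0.885 to 0.997).

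ABCC2, on chromosome 10 from 101542355 to 101611949, is the apical export pump of liver and kidney and carries cisplatin conjugates. It had 1165 reads in A375P, 1324 in A375R, 1577 with DMSO and 2847 with vemurafenib, at TPMs of 24.96, 31.4, 36.2 and 65.8. A375+VEM stood above the other 3 libraries, 1.82-fold over A375+DMSO (95% interval 1.71 to 1.93). In A375+VEM it was the second highest of all ABC genes. A375R was 1.26-fold above A375P (1.16 to 1.36) and at 0.867 of A375+DMSO (0.806 to 0.934), both within 1.5-fold.

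ABCC3, on chromosome 17 from 48712218 to 48769063, is the basolateral counterpart of ABCC2. It had 520 reads in A375P, 1229 in A375R, 804 with DMSO and 162 with vemurafenib, at TPMs of 11.5, 30.1, 19.1 and 3.87. A375R was the highest library and A375+VEM the lowest. The ratio of A375R was 2.62 to A375P (95% interval 2.36 to 2.90) and 1.58 to A375+DMSO (1.44 to 1.73), and both were past 1.5-fold. The other 6 genes higher in A375R than in A375P had ratios of 0.773 to 1.38 to A375+DMSO. The interval of ABCC3 against A375+DMSO includes 1.5-fold, as do those of ABCB1 (1.14 to 1.64) and ABCG1 (1.15 to 1.65). In the acute pair ABCC3 stood at 0.203 of A375+DMSO (0.170 to 0.241). ABCC2 and ABCC3 thus stood on opposite sides of A375+DMSO under acute vemurafenib.

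ABCC4, which exports cyclic nucleotides and prostaglandins, had TPMs of 17.2 in A375P, 18.4 in A375R, 14.2 with DMSO and 12.2 with vemurafenib. ABCC5, another exporter of cyclic nucleotides, had 8.71, 11.9, 11.8 and 14.8 in the same order. ABCC10, a pump for taxanes, had 9.95, 12.3, 13.4 and 18.9. None of these 3 genes passed 1.5-fold in any of the 4 comparisons. ABCC6, whose loss causes ectopic calcification, had 12, 30, 39 and 92 reads in A375P, A375R, A375+DMSO and A375+VEM. In the acute pair its ratio was 2.38 (95% interval 1.62 to 3.55). Its pseudogenes ABCC6P1 and ABCC6P2 are near-identical copies with 2 to 18 and 1 to 8 reads, so its count is uncertain. ABCB5, ABCC11 and ABCC12 had at most 12 reads in any library and are given no ratio.

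**Figure D5:**
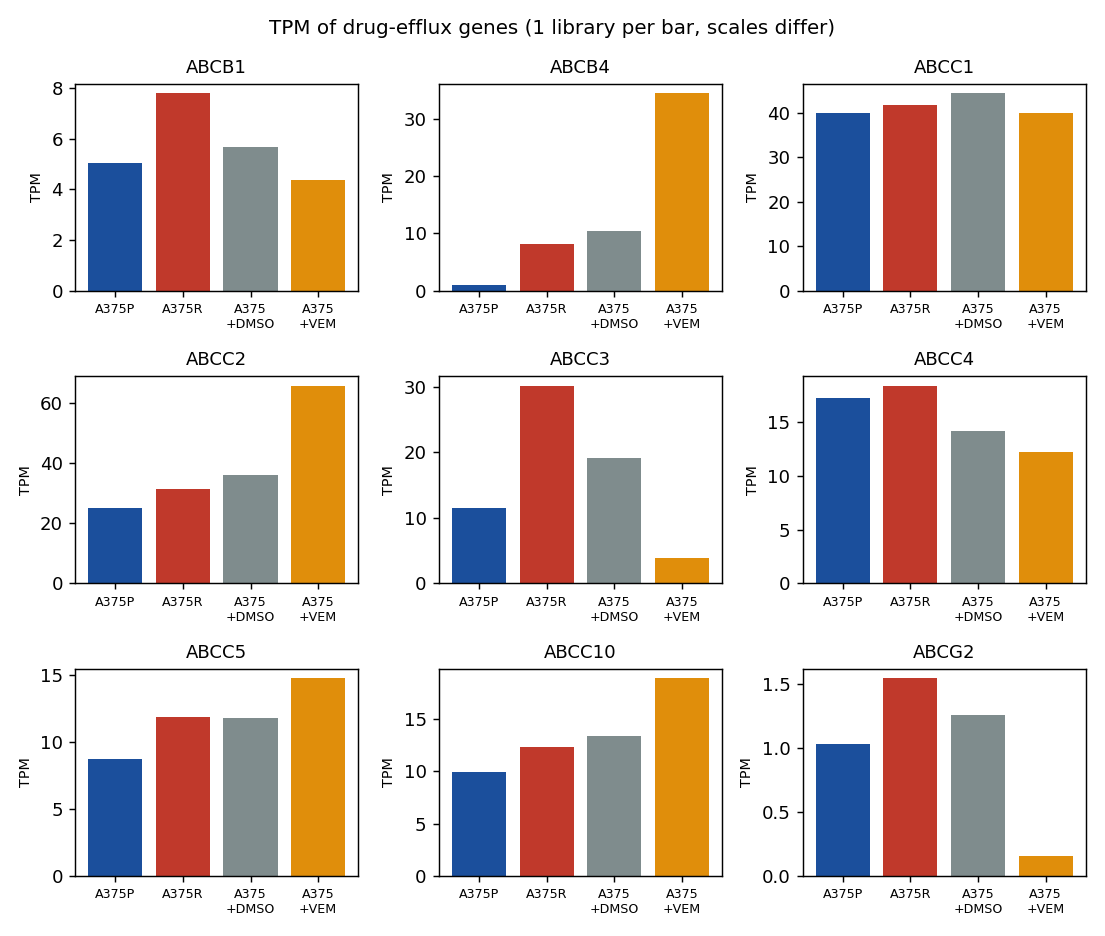
TPM of 9 drug-efflux genes in the 4 libraries, 1 bar per library, each panel with its own vertical axis starting at 0. ABCC1 is level across the panel, ABCB4, ABCC2, ABCC5 and ABCC10 are tallest in A375+VEM, and ABCB1, ABCC3, ABCC4 and ABCG2 are tallest in A375R.

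Sterols and phospholipids are carried by subfamily A, ABCB4 and most of subfamily G, a list of 17 genes that shares ABCA2, ABCA3 and ABCB4 with the drug-efflux list. In the resistance pair 5 of 10 tested were higher and 2 lower, and in the acute pair 4 of 9 were higher and 2 lower, with median log2 ratios of 0.50 and 0.37. The shares over all genes were again 26.8% higher and 17.5% lower in the resistance pair and 26.5% and 19.7% in the acute pair. In A375+DMSO against A375P 5 of 10 were higher and 4 lower, with a median of 0.55. In A375R against A375+DMSO 1 of 9 was higher and 0 lower, with a median of 0.03.

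ABCA2, an endolysosomal lipid transporter that has been linked to estramustine resistance, lies on chromosome 9 from 139901686 to 139923374. It had 578 reads in A375P, 1827 in A375R, 2100 with DMSO and 2702 with vemurafenib, at TPMs of 8.07, 28.2, 31.4 and 40.7. A375P alone was low. The ratio was 3.50 in A375R against A375P (95% interval 3.18 to 3.85) and 0.899 against A375+DMSO (0.844 to 0.957), while A375+DMSO was 3.89-fold above A375P (3.55 to 4.28). ABCA2 overlaps C9orf139 on the other strand by 1459 bp, and whether the counting used strand is not given in the sources used here.

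ABCA1, which loads cholesterol and phospholipid onto apolipoprotein A-I, lies on chromosome 9 from 107543283 to 107690527 and had 871 reads in A375P, 921 in A375R, 362 with DMSO and 608 with vemurafenib. Its TPMs were 9.68, 11.3, 4.31 and 7.29. A375+DMSO was the lowest library, at 0.445 of A375P (95% interval 0.393 to 0.504). Against it, A375R was 2.63-fold higher (2.32 to 2.98) and A375+VEM 1.69-fold higher (1.48 to 1.93). Against A375P, A375R was 1.17-fold higher (1.07 to 1.29), within 1.5-fold.

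ABCG1, on chromosome 21 from 43619799 to 43717354, passes cholesterol on to high-density lipoprotein. It had 57 reads in A375P, 287 in A375R, 215 with DMSO and 56 with vemurafenib, at TPMs of 1.84, 10.3, 7.46 and 1.96. A375R and A375+DMSO were high, and A375P and A375+VEM were low. The ratio was 5.57 in the resistance pair (95% interval 4.18 to 7.54) and 0.262 in the acute pair (0.192 to 0.353). Against A375+DMSO, A375R was 1.38-fold higher (1.15 to 1.65), within 1.5-fold. ABCG4, its close relative in brain, had 12, 33, 39 and 48 reads in A375P, A375R, A375+DMSO and A375+VEM. Its ratio of 3.04 in the resistance pair has an interval of 1.53 to 6.47, and A375R stood at 0.874 of A375+DMSO (0.533 to 1.43).

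ABCA3 and ABCA7 were both higher under acute vemurafenib. ABCA3, which fills the lamellar bodies of lung surfactant cells with phospholipid, had 360 reads in A375P, 162 in A375R, 125 with DMSO and 419 with vemurafenib. It stood at 0.498 in the resistance pair (95% interval 0.411 to 0.601) and at 3.38 in the acute pair (2.76 to 4.16). Against A375+DMSO, A375R stood at 1.34 (1.05 to 1.70), within 1.5-fold. A375P and A375+VEM were the libraries with more of it, at 6.34 and 7.97 TPM, and A375R and A375+DMSO had 3.16 and 2.36. ABCA7, a phospholipid transporter known from the genetics of Alzheimer disease, had 166, 260, 263 and 1068 reads in the same order of libraries. A375+VEM stood 4.09-fold above A375+DMSO (3.57 to 4.70), and A375R stood 1.73-fold above A375P (1.42 to 2.12) but at 1.02 of A375+DMSO (0.857 to 1.22).

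Next to each other on chromosome 17 lie ABCA5, ABCA6, ABCA8, ABCA9 and ABCA10, all on the minus strand. ABCA5, a lysosomal member, and ABCA10 were the pair with a TPM above 1, and they overlap by 381 bp on the same strand. ABCA5 had 222 reads in A375P, 213 in A375R, 269 with DMSO and 230 with vemurafenib, and its interval in the acute pair, 0.719 to 1.03, includes no difference. ABCA10 had 449, 281, 260 and 37 reads, and stood at 0.143 in the acute pair (95% interval 0.0987 to 0.203). In the resistance pair its log2 ratio of -0.52 was within 1.5-fold, and past it (-0.62) with scaling to a median ratio of 1. ABCA8 had 47 reads in A375+VEM, at a TPM of 0.986, and at most 13 elsewhere. ABCA6 and ABCA9 had at most 21 and 9 reads. ABCA13, a very large member on chromosome 7, had 193 reads in A375P, 56 in A375R, 26 with DMSO and 20 with vemurafenib, so A375P alone reached a TPM of 1 and A375R was not compared with A375+DMSO. Its ratio in the resistance pair was 0.321 (95% interval 0.234 to 0.435).

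Inside the cell, ABCB6, ABCB8 and ABCB10 serve mitochondria, iron and haem. In both vemurafenib pairs these 3 genes were within 1.5-fold. ABCB6, a porphyrin transporter, had 13.7, 15.9, 28.2 and 34.7 TPM in A375P, A375R, A375+DMSO and A375+VEM. A375P and A375R were the low libraries, and A375R stood at 0.564 of A375+DMSO (95% interval 0.496 to 0.641). ABCB8 had between 11.5 and 19.3 TPM and ABCB10, which stabilizes the iron importer of mitochondria, between 26.3 and 38.2.

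In lysosomes, ABCB9 takes up peptides and ABCD4 releases cobalamin. ABCB9, on chromosome 12 from 123405498 to 123451056, had 2311 reads in A375P, 758 in A375R, 672 with DMSO and 1850 with vemurafenib, at TPMs of 69.0, 25.05, 21.5 and 59.6. Like ABCA3 it was high in A375P and A375+VEM and low in A375R and A375+DMSO. The ratio was 0.363 in the resistance pair (95% interval 0.334 to 0.394) and 2.77 in the acute pair (2.54 to 3.03), and A375R was within 1.5-fold of A375+DMSO at 1.17 (1.05 to 1.29). ABCD4 had 12.9, 15.8, 21.9 and 24.0 TPM in A375P, A375R, A375+DMSO and A375+VEM.

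Peroxisomes import fatty acids through subfamily D. ABCD3, which imports branched-chain and bile acid precursors, had between 21.3 and 31.7 TPM and passed 1.5-fold in none of the 4 comparisons. ABCD2 had 0 reads in A375P and 5, 11 and 13 in A375R, A375+DMSO and A375+VEM.

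Of the 4 members that are not transporters, ABCF2 was lower in the resistance pair and ABCE1 in the acute pair, and none was higher in either. Beside these few genes, 26.8% of all genes tested were higher and 17.5% lower in the resistance pair, and 26.5% and 19.7% in the acute pair. The summed TPM of the 4 members was 305 in A375P, 240.3 in A375R, 212 with DMSO and 190 with vemurafenib. ABCE1, on chromosome 4 from 146019156 to 146050676, had 3494 reads in A375P, 2267 in A375R, 1679 with DMSO and 754 with vemurafenib, at TPMs of 97.2, 69.8, 50.1 and 22.6. No 2 libraries were alike, and A375+VEM was the lowest. It stood at 0.452 in the acute pair (95% interval 0.414 to 0.493), at 0.718 in the resistance pair (0.681 to 0.757) and at 0.515 in A375+DMSO against A375P (0.486 to 0.546). A375R lay below A375P but above A375+DMSO, at 1.39 of the latter (1.31 to 1.49), within 1.5-fold. ABCE1 overlaps ANAPC10 on the other strand by 538 bp. ABCF1 had between 82.0 and 95.5 TPM, and ABCF3, a cytosolic relative, between 32.0 and 42.0. ABCF2 had 74.8 TPM in A375P and 48.7, 45.7 and 41.1 in A375R, A375+DMSO and A375+VEM, at 0.651 in the resistance pair (0.614 to 0.689) and 0.899 in the acute pair (0.840 to 0.962). A375R stood at 1.07 of A375+DMSO for ABCF2 (0.998 to 1.14).

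The other 14 members had TPMs of at most 0.986 and at most 47 reads in any library. Apart from those already described, they include the bile salt pump ABCB11 with 1 to 5 reads, the retinal transporter ABCA4 with 5 to 12, the keratinocyte lipid transporter ABCA12 with 7 to 31, and the sterol half-transporters ABCG5 and ABCG8 with 1 to 10 and 2 to 6. The regulatory subunits of potassium channels ABCC8 and ABCC9 had 4 to 7 and 1 to 3 reads. No difference between libraries was judged for these genes.

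Genes that work beside the ABC proteins were read in the same way, and their counts stand beside 26.8% higher and 17.5% lower over all genes in the resistance pair, 26.5% and 19.7% in the acute pair, 26.8% and 18.9% in A375+DMSO against A375P, and 10.5% and 9.99% in A375R against A375+DMSO. Of 9 genes listed for peroxisomal lipid metabolism, not all of them oxidation enzymes, 8 were tested in each pair. In the resistance pair 3 were higher (ACOX3, AMACR and AGPS) and 0 lower, and in the acute pair 1 was higher and 2 lower. In A375+DMSO against A375P 5 of these 8 were higher and 0 lower (median log2 ratio 0.72), and in A375R against A375+DMSO 1 was higher and 0 lower (median -0.18). AMACR, a racemase for branched-chain acids, had 265 reads in A375P, 1953 in A375R, 1279 with DMSO and 290 with vemurafenib, and ACOX2, an oxidase for branched-chain acids, had 118, 119, 173 and 44. AMACR was high in A375R and A375+DMSO, as ABCG1 was. Of 5 haem genes, 4 were tested, with 3 higher and 0 lower in the resistance pair and 1 higher and 2 lower in the acute pair. In A375+DMSO against A375P 2 of these 4 were higher and 0 lower (median log2 ratio 0.40), and in A375R against A375+DMSO 1 was higher and 0 lower (median 0.10). ALAS1, the first enzyme of haem synthesis, was 1.78-fold higher in the resistance pair (95% interval 1.68 to 1.90), at 0.591 in the acute pair (0.547 to 0.639) and at 1.58 in A375R against A375+DMSO (1.49 to 1.68). ALAD, the next enzyme, was higher in both vemurafenib pairs, at 1.65 (1.47 to 1.86) and 2.08 (1.92 to 2.26), and A375R stood at 0.823 of A375+DMSO (0.744 to 0.91). Of 7 apolipoprotein genes, 5 were tested, with 1 higher and 2 lower in the resistance pair and 2 higher and 0 lower in the acute pair. In A375+DMSO against A375P 1 was higher and 1 lower, and in A375R against A375+DMSO 0 were higher and 2 lower. APOE, an acceptor of the cholesterol that ABCA1 and ABCG1 export, was 1.89-fold higher in the resistance pair (1.53 to 2.34) and 1.53-fold higher in the acute pair (1.27 to 1.84), and A375R stood at 1.24 of A375+DMSO (1.03 to 1.51), within 1.5-fold.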

How the data were processed

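Total RNA of 4 A375 cultures was sequenced with Illumina protocols, 1 library per condition, and groups were taken from the sample titles. The authors deposited whole-number read counts per gene without normalization, and TPM, which the authors made by dividing counts by gene length and scaling over the whole library (TPM times length over count was 1 constant per library). The submitters' processing notes list hg19, HISAT2, TopHat2, Bowtie2 and HISAT. Their roles, the counting program and strand use are not given in the sources used here. A single incomplete row was left out.

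The family members, gene lists and thresholds were chosen with earlier results of these data known. Members reaching a TPM of 1 in some library are named, as are all drug-efflux genes. The values of 2 members are not reported here singly, in text or plots, but enter the counts and sums. Genes were compared when either library reached a TPM of 1, and called past 1.5-fold with a pseudocount of 0.1 TPM. Fold values and their 95% Clopper-Pearson intervals are on TPM without pseudocount, and log2 ratios include it. With 1 library per condition no test was run. The steps were tested on simulated data. Alternatives were pseudocounts of 1 and 0.01, no filter, a TPM of 5, scaling to a median ratio of 1, and 2-fold. Computations ran in Python 3.11.15 with scipy 1.17.1, and plots were drawn with matplotlib 3.10.9.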

Additional observations from a re-analysis of the deposited data

Results flagged for a closer look

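Among the ABC genes, 4 were past 1.5-fold in opposite directions in the resistance pair and the acute pair, which share no library. They are 13.8% of the 29 ABC genes tested in both pairs, beside 12.1% of all 1656 genes tested in both, so the share was near that of the table as a whole. No test of the difference between pairs was possible, so it was not tested. ABCA3 had a log2 ratio of -0.98 in A375R against A375P and of 1.71 in A375+VEM against A375+DMSO. ABCB9, the lysosomal peptide transporter, was at -1.46 and 1.47. In the other direction, ABCC3 was at 1.38 and -2.27, and the cholesterol exporter ABCG1 at 2.42 and -1.88. A375+DMSO itself differed from A375P for these genes, at log2 ratios of -1.39 for ABCA3, -1.68 for ABCB9, 0.72 for ABCC3 and 1.96 for ABCG1. ABCA7 and ABCB4 were past 1.5-fold upward in both pairs, 6.90% of the 29 genes, where 10.1% of all genes were past it the same way in both.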

How the results depend on the processing

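No paired analysis was possible because each condition has 1 library. No library could be left out for the same reason. At 2-fold in place of 1.5-fold, 2 genes were lower in the resistance pair, 5 were higher in the acute pair, 5 were higher and 4 lower in A375+DMSO against A375P, and 1 was higher and 0 lower in A375R against A375+DMSO. When the 45 genes were all compared whatever their level, 9 were lower in the resistance pair, 16 were higher in the acute pair, and 5 were higher and 4 lower in A375R against A375+DMSO. The genes added by this had a TPM under 1 in both libraries compared. Shares over all genes were not computed at these settings, so these counts cannot be set against them. The other counts stayed within 1.5 times the values given. The median of the ABC genes stayed above 0 in all 4 comparisons under every alternative tried. At the main settings the median over all genes tested was above 0 in all 4 as well. Scaling to a median ratio of 1 shifts log2 ratios by 0.10 in the resistance pair, 0.11 in the acute pair, 0.09 in A375+DMSO against A375P and 0.02 in A375R against A375+DMSO. The log2 ratios of single genes left their counting interval in 17 of 136 cases with a pseudocount of 1, in 13 of 136 with that scaling and in 0 with a pseudocount of 0.01. A pseudocount keeps the order of the TPMs and that scaling shifts little, so neither could change the sign of a gene past 1.5-fold. With 6 reads in A375+VEM, ABCG2 is limited by depth, and replication would be needed to tell any of these differences from spread between cultures.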

Other observations

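The table holds 15 further rows with ABC symbols that are not protein-coding. ABCA11P, a transcribed pseudogene, had 202 reads in A375P, 147 in A375R, 201 with DMSO and 134 with vemurafenib, and ABCA17P had 16 to 22. The antisense RNA ABCC5-AS1 had 3 reads in A375+VEM and 0 in the other libraries, and ABCA9-AS1 had 1 read in A375R. Pseudogenes of ABCB10 and ABCF2 had at most 2 reads each.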
